A study of Homo sapiens with 24 samples.

Results

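The rows described here are the antisense long non-coding RNAs whose symbol ends in -AS1. Of 60658 rows in the deposited count table, 164 carry such a symbol, and 99 of these had a mean of at least 10 reads over the 24 libraries. OIP5-AS1 was set aside by the rule, which left 98 antisense RNAs. They were selected on their mean count, so the levels below are a description. The 3 nearest members above the limit were FOXN3-AS1 with a mean of 10.5 reads, TRG-AS1 with 10.7 and ADAMTSL4-AS1 with 11.1, and the 3 nearest rows below it were C21orf62-AS1 with 9.83, SMIM2-AS1 with 9.38 and VPS13A-AS1 with 9.

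The study asked how specifically 4 ways of depleting ciRS-7 (CDR1as), a circular RNA, act in human cells labelled SH-SY5Y, a neuroblastoma line. In the agoshRNA setup the cells received a vector for a short hairpin RNA that Argonaute matures. For the gRNA setup and the pre-gRNA setup, a CasRx-GFP vector, which encodes an RNA-cutting nuclease, went in together with a plasmid for either form of the guide RNA. The syn-gRNA setup used a chemically synthesised guide, whose delivery is not given in the sources used here; the other 3 are called plasmid setups below. Each knockdown (KD) had its own non-targeting control (NTC), with 3 libraries in each of the 8 groups. All cells were transfected transiently, were harvested after 48 h and gave poly(A)-selected, non-stranded libraries. The labels do not say whether the libraries of a group came from separate cultures, so p-values measure the spread between these libraries. Setup, delivery and any batch cannot be told apart between setups. The rows count genes and not circular RNAs, so no level of ciRS-7 is given.

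An antisense RNA is transcribed from the strand opposite to a named gene, its sense partner, either across the partner's body or away from a start site that both share. Some act on their own locus, by holding chromatin regulators, by masking splice sites or by colliding transcription, and many have no known role. A non-stranded library keeps no record of the strand, so a read from a stretch that both RNAs contain cannot be assigned to either one.

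Library totals ran from 10994974 to 16233777 counts. Columns end in A, B or C, and KD and NTC libraries of one setup with the same letter deviated together. The correlation of their deviations lay between 0.36 and 0.97 over all genes tested, and between 0.26 and 0.93 over the antisense RNAs, in 12 of 12 pairs. Tests that treat all 24 libraries as separate therefore stand below beside tests on the summed counts of each pair. The labelled cell type did not match several of its markers. PHOX2A, DBH and TH, which define noradrenergic neuroblastoma cells, had means of 0.0932, 0.0190 and 0.00261 reads per 1e6 counted (CPM). Of 13 such markers 4 exceeded 10 CPM: GATA2 at 35.7, TBX2 at 22.0, HAND1 at 21.4 and CHRNA3 at 13.0. Of 8 kidney-lineage genes described in HEK293 cells, 7 exceeded 10 CPM, with HOXA9 at 98.2 and PAX8 lowest at 0.0138. Of 7 mesenchymal neuroblastoma markers 5 did, with VIM at 872 CPM and CD44 lowest at 0.0861. The identity of the cells was not tested.

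Sequence shows the arrangement of the loci on which the results turn. The first 2 lines give the same 60 coding bases of MIF (macrophage migration inhibitory factor, a cytokine), at chr22:23894772-23894831 of GRCh38, in which an exon of MIF-AS1 lies on the opposite strand (GENCODE 29). They are shown because a read of this stretch belongs to either RNA.
MIF: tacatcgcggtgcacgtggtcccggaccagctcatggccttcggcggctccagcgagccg
MIF-AS1: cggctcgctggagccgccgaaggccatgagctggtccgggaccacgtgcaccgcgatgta
The next 4 lines give RefSeq promoter windows (GRCh38.p14) of 4 antisense RNAs that differed between setups, 5′ to 3′ on the strand of the antisense RNA, with the 50 bases after its start in capitals. ZEB2-AS1 (chr2:144519364-144519663, plus strand) starts inside an intron of ZEB2, a zinc finger repressor of epithelial genes.
ZEB2-AS1: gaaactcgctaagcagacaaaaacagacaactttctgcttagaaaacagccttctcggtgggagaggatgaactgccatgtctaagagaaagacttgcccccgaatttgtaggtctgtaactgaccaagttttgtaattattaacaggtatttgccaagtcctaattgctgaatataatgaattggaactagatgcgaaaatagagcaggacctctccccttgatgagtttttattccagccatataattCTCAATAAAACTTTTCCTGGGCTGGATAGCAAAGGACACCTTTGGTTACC
ZNF295-AS1 (chr21:42008944-42009243, plus strand, 1 of 3 listed starts) overlaps exons of ZBTB21, the gene once called ZNF295, on the other strand.
ZNF295-AS1: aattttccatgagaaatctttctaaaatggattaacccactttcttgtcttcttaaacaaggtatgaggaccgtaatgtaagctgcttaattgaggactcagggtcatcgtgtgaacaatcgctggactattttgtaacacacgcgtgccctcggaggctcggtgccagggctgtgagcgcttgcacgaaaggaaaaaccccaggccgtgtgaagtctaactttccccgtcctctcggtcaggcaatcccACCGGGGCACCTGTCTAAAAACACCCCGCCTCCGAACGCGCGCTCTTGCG
GTSE1-AS1, now named GTSE1-DT, runs away from GTSE1, a G2 and S phase gene. The 130 bases at chr22:46296611-46296740, minus strand, hold its start and the 80 bases up to the GTSE1 transcript.
GTSE1-AS1: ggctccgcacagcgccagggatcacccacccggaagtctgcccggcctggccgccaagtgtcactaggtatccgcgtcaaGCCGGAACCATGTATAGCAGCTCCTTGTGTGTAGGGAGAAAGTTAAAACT
FOXD2-AS1 (chr1:47434592-47434891, minus strand) runs away from the forkhead gene FOXD2 from a start that is further apart.
FOXD2-AS1: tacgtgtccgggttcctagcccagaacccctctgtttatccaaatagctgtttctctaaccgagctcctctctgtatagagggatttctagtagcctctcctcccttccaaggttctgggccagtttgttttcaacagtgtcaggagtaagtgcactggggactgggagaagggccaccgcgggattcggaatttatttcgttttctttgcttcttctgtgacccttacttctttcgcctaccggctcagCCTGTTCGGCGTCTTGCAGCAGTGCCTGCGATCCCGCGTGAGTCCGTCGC

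Promoter windows from 250 bases before to 50 bases after the start were on hand for 65 of the 98 antisense RNAs. RefSeq gives 17 of the 98 another symbol. In 22 of the 54 pairs with windows for both genes, the window of the antisense RNA overlapped that of its partner on the other strand, among them HOXA11-AS1, GTSE1-AS1, MNX1-AS1, CEBPA-AS1 and HAND2-AS1. Overlap with any opposite-strand window was found for 33.8% of the 65, and for 15.5% of all 27305 genes with a window. The windows of antisense RNAs had a median GC content of 61.0% and 20 CG dinucleotides, against 58.3% and 14 over all genes. Searched on both strands, TATAAA was present in 3.08% of them and in 12% of all windows, GGGCGG in 49.2% and 44.6%, CCGGAAG in 15.4% and 10.7%, and CACCTG, which ZEB proteins can bind, in 18.5% and 20.6%. None of these motifs contains another. The antisense RNAs had passed a limit on their mean count, while the windows of all genes were taken without one. The part of that limit in these contrasts was not tested. Of the windows printed above, GTSE1-AS1 held CCGGAAG and ZNF295-AS1 held CACCTG, 1 time each.

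Antisense RNAs spanned a wide range of levels, and the rows of MIF-AS1 and LRRC75A-AS1 held most of their reads. The MIF-AS1 row differed from the MIF row by only -5 to 8 reads per library. Its values below are therefore those of the row, and the level of MIF-AS1 itself is not known. The median over the 98 of the mean count was 63.4 reads. There were 35 with a mean of at least 100 reads and 30 with fewer than 30. Their summed level was 2424 to 4153 CPM per library, and 796 to 1075 CPM without those 2 RNAs. LRRC75A-AS1 (now SNHG29; ENSG00000175061, chr17:16342136-16381992 in hg19, plus strand), a host of small nucleolar RNAs, ranged from 607 to 1135 CPM with a median of 848. MIF-AS1 (ENSG00000218537, chr22:24236613-24241117 in hg19, minus strand) ranged from 742 to 2326 CPM with a median of 1213. RUSC1-AS1 followed at 70.9 to 127 CPM. EPB41L4A-AS1, which hosts SNORA13, ranged from 49.5 to 120 CPM, with its highest levels in the agoshRNA libraries of letter C.

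The next levels were those of GABPB1-AS1, GAS5-AS1, TP73-AS1 and HOXA11-AS1. GABPB1-AS1, opposite a subunit of the transcription factor GABP, ranged from 15.7 to 103 CPM. GAS5-AS1, opposite the non-coding RNA GAS5, ranged from 31.0 to 66.8 CPM, and TP73-AS1, opposite the p53 relative TP73, from 27.7 to 55.7 CPM. HOXA11-AS1, opposite the homeobox gene HOXA11, ranged from 12.1 to 62.1 CPM. These ranges overlapped, so the order among neighbours was not resolved. Per kilobase of exon, the mean levels were 870 CPM for the MIF-AS1 row, 229 for LRRC75A-AS1, 64.3 for GAS5-AS1 and 27.7 for RUSC1-AS1. The first cannot be told from the reads of MIF. The median over all 98 antisense RNAs was 1.66 CPM per kilobase, against 4.52 over the partners. Of the 93 with a partner, 20 exceeded it on that scale.

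Most antisense RNAs overlap exons of a gene on the other strand. Of the 98, 93 have a row for the sense partner. In 80 pairs the spans overlap, and in the other 13 the genes run apart from starts 0 to 1375 bases away from each other. Of 96 found in GENCODE 29, 79 have exon bases that an exon on the other strand also covers, with a median of 9.95% of their exon bases, and in 12 the share is at least 50%. The remaining 17 have none, among them FOXD2-AS1, HOXC-AS1, BAIAP2-AS1, MNX1-AS1 and GTSE1-AS1. Raw counts were below those of the partner in 79 pairs and above in 14.

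MIF-AS1 is the plainest case. Its row held 10045 to 35620 reads and the MIF row 10047 to 35621. The difference between them ran from -5 to 8 reads, at most 0.0688% of the count, and was 0 in 3 libraries. The 60 bases printed for this locus lie in the 46.5% of MIF-AS1 exon bases that MIF exons cover. The level of MIF-AS1 on its own strand is therefore not known from these libraries.

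Across the 24 libraries, on the log2(CPM + 0.5) scale, the Pearson correlation between antisense RNA and partner had a median of 0.70 over 93 pairs and of 0.79 over the 53 in which both means were at least 50 reads. It was 0.98 for the 7 pairs in which partner exons cover at least 50% of the antisense exon bases, 0.86 for the 19 with 10 to under 50%, 0.67 for the 19 with more than 0 and less than 10% and 0.64 for the 8 with no shared base. Among pairs with fewer reads, RASSF1-AS1, ARF4-AS1 and FUT8-AS1 had shares of 83.4, 50.4 and 54.2%. Their correlations were 0.46, -0.37 and 0.51. These points share libraries and depth, and the values describe the pairs without a test. Among those 53 pairs, the highest were MIF-AS1 at 1.00, RNF219-AS1 at 1.00, CERS6-AS1 at 0.99 and RBM5-AS1 at 0.99. The lowest of the 53 were DNAJC9-AS1 at -0.69, with a share of 5.58%, and EPB41L4A-AS1 at -0.42, with a share of 49.6%. The second lies just under the 50% limit, so the high values above that limit depend on where it was set. DNAJC9-AS1 had a correlation of 0.81 with MRPS16, another opposite-strand gene it overlaps. Likewise RUSC1-AS1 followed FDPS, at 0.98, more closely than RUSC1, at 0.71. FOXD2-AS1, with no shared exon base, had a correlation of 0.95 with FOXD2. Whether reads or regulation are shared cannot be told apart for pairs that overlap.

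**Figure D1:**
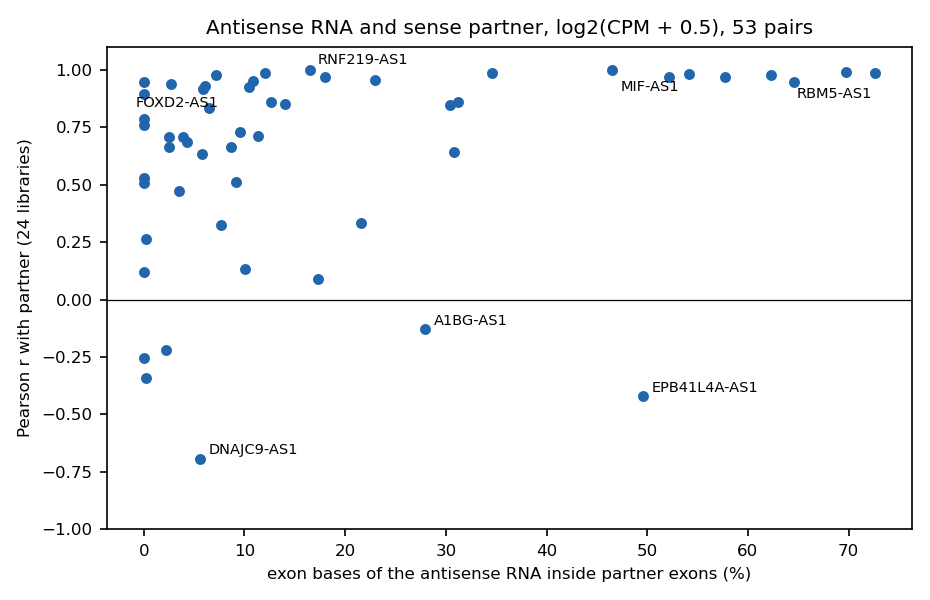
Pearson correlation over 24 libraries of each antisense RNA with its sense partner (y axis) against the percentage of its exon bases inside partner exons (x axis), for the 53 pairs with means of at least 50 reads. The 7 of these pairs at 50% or more lie between 0.95 and 0.99, while those with less overlap reach down to -0.69. EPB41L4A-AS1, just under that limit at 49.6%, lies at -0.42. Pairs with fewer reads are not drawn.

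No antisense RNA passed the test between KD and NTC in any setup. With DESeq2 on the 6 libraries of a setup, 0 of 94 tested passed an adjusted p of 0.05 in the agoshRNA setup, 0 of 98 in gRNA, 0 of 98 in pre-gRNA and 0 of 96 in syn-gRNA. The share called over all genes tested was 0% in each setup. The counts at an unadjusted p under 0.05 were also 0 in each, where 0%, 0.0925%, 0.0107% and 0.297% of all genes had one. Likewise edgeR's quasi-likelihood test called 0 and found 0 at that unadjusted level. With the column letter as a block, DESeq2 called 0 as well, with 0, 1, 2 and 0 at an unadjusted p under 0.05. The authors' deposited table for gRNA gives 2 antisense RNAs an unadjusted p under 0.05, and none of their 4 tables gives one an adjusted p under 0.05.

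The median log2 fold change of the antisense RNAs was 0.03, 0.05, 0.05 and 0.01 in the 4 setups in the same order, against 0.06, 0.02, 0.01 and 0.00 over all genes tested. The median standard error of a fold change was 0.57, 0.47, 0.49 and 0.29, so a change of that size in a single RNA was not detectable. A bulk library cannot tell fewer cells that express an RNA from less RNA per cell. Averaged over the 4 setups, 0 of 98 passed in DESeq2, with 0 at an unadjusted p under 0.05, where 0.178% of all genes had one. The 6 comparisons of the KD effect between setups also gave 0 in DESeq2 and in edgeR, and 0 at an unadjusted p under 0.05, where 0.149, 0.154, 0.144, 0.178, 0.223 and 0.144% of all genes had one.

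**Figure D2:**
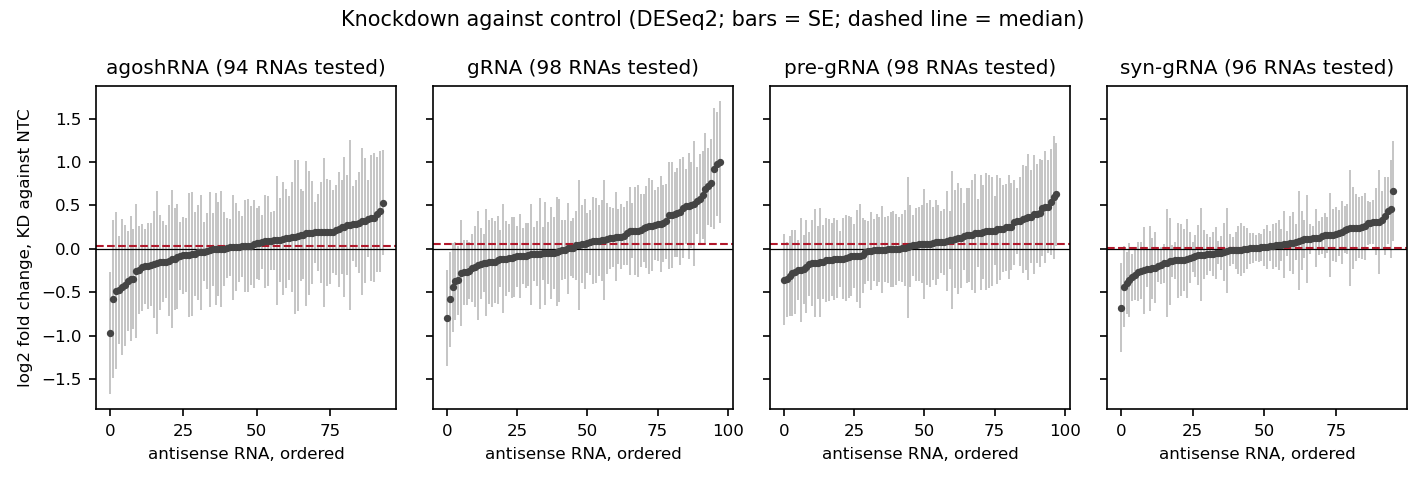
Log2 fold change of KD against NTC (y axis) for each antisense RNA tested, ordered within each of the 4 setups (x axis), with bars of 1 standard error and the median as a dashed line. The medians lie between 0.01 and 0.05, and no antisense RNA passed the test.

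Some antisense RNAs had KD and NTC libraries that did not overlap, and those named by rule, with a mean of at least 20 reads in the setup, are given as a description. SERTAD4-AS1, opposite a SERTA domain gene, was at 3.27, 3.89 and 4.05 CPM in the gRNA KD libraries and at 2.61, 2.65 and 2.88 in the NTC libraries, a log2 fold change of 0.56 ± 0.39 (SE). TSC22D1-AS1 was lower in that KD, at 2.31, 0.748 and 2.24 CPM against 2.82, 2.42 and 2.51, a log2 fold change of -0.44 ± 0.52. Without the KD library of letter B it was -0.08, and without that of letter A -0.75. In the syn-gRNA setup MBNL1-AS1, opposite the splicing factor MBNL1, was at 2.71, 2.76 and 3.55 CPM against 2.35, 2.32 and 2.43, a log2 fold change of 0.33 that was 0.20 without the KD library of letter C. SEPSECS-AS1 was at 1.36, 1.18 and 1.36 CPM against 1.68, 1.72 and 1.58. KD and NTC did not overlap for 0 of 94 antisense RNAs in agoshRNA, 6 of 98 in gRNA, 0 of 98 in pre-gRNA and 4 of 96 in syn-gRNA. Over all genes tested, 0.87% did not overlap in agoshRNA, 2.3% in gRNA, 1.13% in pre-gRNA and 4.88% in syn-gRNA. With an average over setups, MAN1B1-AS1 (0.56 ± 0.35) and MBNL1-AS1 (0.33 ± 0.21) had the smallest unadjusted p, at 0.11 and 0.12 in DESeq2. Without the KD library of letter A of gRNA or of agoshRNA the MAN1B1-AS1 value was 0.30 or 0.34, and without the agoshRNA KD library of letter B the MBNL1-AS1 value was 0.16.

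Some antisense RNAs differed between syn-gRNA and the plasmid setups, while none passed between arms. These tests are unlike in size, with 6 libraries per setup and 3 per arm of a setup. With KD or NTC libraries alone, fewer passed against syn-gRNA, as the closing section gives. In 1 DESeq2 model of the 24 libraries, over both arms, none of the antisense RNAs differed between the 3 plasmid setups: 0 of 98 between agoshRNA and gRNA, where 0.302% of all genes passed, 0 between agoshRNA and pre-gRNA, where 0.322% passed, and 0 between gRNA and pre-gRNA, where 0% passed. At an unadjusted p under 0.05 the counts were 6, 13 and 0, against 4.71, 5.94 and 0.709% of all genes, and edgeR called 0 in each, with 5, 12 and 0. Against syn-gRNA, 13 of 98 differed from agoshRNA (5 higher in agoshRNA and 8 lower), 12 from gRNA (8 higher in gRNA and 4 lower) and 17 from pre-gRNA (7 higher in pre-gRNA and 10 lower). The shares over all genes were 13.2%, 10.9% and 17.9%, so the antisense RNAs were near the background. By direction, 7.58% of all genes were higher and 5.66% lower in agoshRNA, 5.89% and 4.97% in gRNA, and 10.6% and 7.34% in pre-gRNA. With edgeR 4, 8 and 15 antisense RNAs passed, against 10.2, 7.03 and 13.2% of all genes. Because letters pair the libraries, the same model was also fitted to the summed counts of each pair, an alternative chosen after the data were seen: it called 1, 2 and 3 of the antisense RNAs, where 2.43%, 1.61% and 2.86% of all genes passed.

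In the 24-library model 24 antisense RNAs differed from syn-gRNA in at least 1 comparison, 13 higher in syn-gRNA and 11 lower. Against all 3 plasmid setups, 5 differed. Among them, ZEB2-AS1 was higher in syn-gRNA, and FOXD2-AS1, AFAP1-AS1 and DHRS4-AS1 were lower. Over all genes tested 3.31% were higher in syn-gRNA against all 3 and 4.03% lower, 7.33% in all. Libraries of syn-gRNA did not overlap those of agoshRNA, gRNA and pre-gRNA for 7.01, 13.5 and 16.2% of all genes. In the summed fit, calls were held by ZEB2-AS1 against each of the 3, GTSE1-AS1 against gRNA and pre-gRNA, and ZNF295-AS1 against pre-gRNA.

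ZEB2-AS1 (ENSG00000238057, chr2:145275664-145279044 in hg19, plus strand) differed by most. In the agoshRNA setup its lowest, median and highest level were 0.291, 1.08 and 2.7 CPM, in gRNA 0.55, 1.06 and 1.70, and in pre-gRNA 0.438, 0.901 and 1.54. In syn-gRNA they were 2.56, 5.05 and 7.91, from 34 to 93 reads per library. The syn-gRNA libraries stood above every gRNA and pre-gRNA library, and overlapped agoshRNA through 1 NTC library of letter B. The log2 difference from syn-gRNA was -1.96 ± 0.46 (SE) for agoshRNA, -2.22 ± 0.47 for gRNA and -2.51 ± 0.47 for pre-gRNA, with adjusted p of 0.00079, 0.00015 and 7.8e-06 in DESeq2. In the summed fit the adjusted p was 0.0489, 0.0187 and 0.00335 in DESeq2.

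ZEB2 had differences of the same sign that did not pass the test. Its levels were 5.39, 15.0 and 47.9 CPM (lowest, median and highest) in agoshRNA and 35.2, 40.4 and 55.8 CPM in syn-gRNA. The log2 differences from syn-gRNA were -0.96, -1.03 and -1.27 for the 3 plasmid setups, with adjusted p of 0.231, 0.196 and 0.0681 in DESeq2. ZEB2 exons cover 41.4% of the ZEB2-AS1 exon bases, and ZEB2-AS1 held 6.34 to 15.7% of the ZEB2 reads in syn-gRNA and 2.97 to 11.8% in the other setups.

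ZNF295-AS1 (ENSG00000237232, chr21:43429303-43445033 in hg19, plus strand), named for a zinc finger gene, was at 2.55, 4.06 and 5.39 CPM in syn-gRNA and at 0.784, 1.08 and 1.38 CPM in pre-gRNA. No library of the 2 setups overlapped, nor did those of gRNA, at 0.372, 1.40 and 1.94 CPM. The agoshRNA libraries reached 3.98 CPM and overlapped. The log2 difference from syn-gRNA was -1.80 ± 0.45 for gRNA and -2.01 ± 0.45 for pre-gRNA, with adjusted p of 0.0024 and 0.00034 in DESeq2. In the summed fit those of DESeq2 were 0.0795 and 0.0224, so the difference from gRNA no longer passed.

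GAS5-AS1 was also higher in syn-gRNA, at 51.8 to 66.8 CPM against 31.7 to 36.8 in pre-gRNA, a log2 difference of -0.82 ± 0.22, which with GC offsets was -0.07 and did not pass. Its partner GAS5, whose transcript hosts small nucleolar RNAs, was lower in pre-gRNA than in syn-gRNA. The log2 difference was -1.26 (adjusted p of 3.9e-06 in DESeq2). GAS5-AS1 held 5.74 to 7.45% of the GAS5 reads in syn-gRNA and 7.88 to 9.86% in pre-gRNA, with no overlap. RBM12B-AS1, at 4.16 to 5.82 CPM in syn-gRNA and 0.98 to 3.47 in pre-gRNA, and HOXC-AS1, at 14.4 to 18.4 CPM in syn-gRNA and 9.85 to 13.8 in agoshRNA, passed in the 24-library model and not in the summed fit, and HOXC-AS1 did not pass in edgeR. With GC offsets HOXC-AS1 passed against all 3, at -0.73, -0.54 and -0.79. Leaving out 1 library ended the HOXC-AS1 call in 7 of 24 cases and the RBM12B-AS1 call in 6 of 24.

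**Figure D3:**
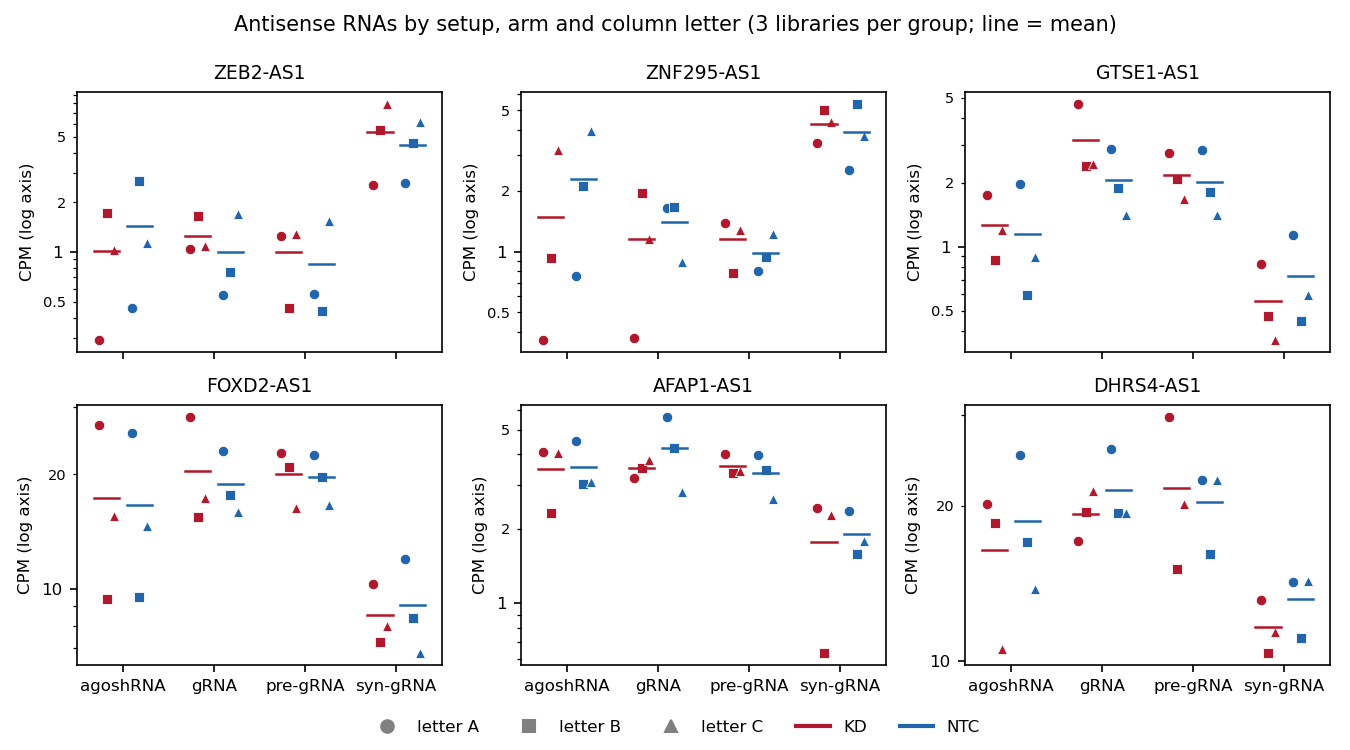
CPM on a log axis (y) of 6 antisense RNAs by setup (x), with KD libraries in red, NTC libraries in blue, a symbol for each column letter and the group mean as a line. In the syn-gRNA setup ZEB2-AS1 reached 2.56 to 7.91 CPM and GTSE1-AS1 0.364 to 1.14, and the KD and NTC libraries lay together.

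Among those lower in syn-gRNA, GTSE1-AS1 (ENSG00000277232, chr22:46691040-46692557 in hg19, minus strand) differed by most. It was at 0.364, 0.533 and 1.14 CPM (lowest, median and highest) in syn-gRNA, at 1.40, 2.43 and 4.69 in gRNA, and at 1.41, 1.95 and 2.83 in pre-gRNA. No syn-gRNA library reached the level of a gRNA or pre-gRNA library, while the agoshRNA libraries, at 0.592 to 1.98 CPM, overlapped with each of the others. The log2 differences from syn-gRNA were 1.92 ± 0.37 for gRNA and 1.67 ± 0.37 for pre-gRNA, with adjusted p of 2.4e-05 and 0.00024 in DESeq2. In the summed fit those of DESeq2 were 0.0098 and 0.0248.

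The log2 differences of GTSE1 from syn-gRNA were 0.29 for gRNA and 0.43 for pre-gRNA, and neither passed in DESeq2. GTSE1-AS1 held 1.35 to 2.93% of the GTSE1 reads in syn-gRNA, 4.20 to 9.22% in gRNA and 3.76 to 5.41% in pre-gRNA, ranges that do not overlap. The 2 genes share no exon base, and the 130-base window holds the start of GTSE1-AS1 and reaches up to the GTSE1 transcript. The difference between the 2 genes in their response was not tested.

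FOXD2-AS1 (ENSG00000237424, chr1:47897805-47900313 in hg19, minus strand) was at 6.77, 8.20 and 12 CPM in syn-gRNA, at 15.5, 17.4 and 28.4 in gRNA and at 16.3, 20.3 and 22.8 in pre-gRNA. It did not overlap in those 2 comparisons, and it overlapped with agoshRNA, at 9.42 to 26.9 CPM. The log2 differences were 0.91 ± 0.27, 1.07 ± 0.27 and 1.14 ± 0.27 for agoshRNA, gRNA and pre-gRNA, with adjusted p of 0.0088, 0.0018 and 0.0005 in DESeq2. In the summed fit the adjusted p of DESeq2 was 0.193, 0.147 and 0.0585. FOXD2 was lower in syn-gRNA too, by log2 differences of 0.97, 1.14 and 1.19, each of which passed in the 24-library model. Without the KD or the NTC library of letter A of agoshRNA, the FOXD2-AS1 difference from agoshRNA was 0.74 in either case and did not pass.

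AFAP1-AS1, opposite an actin filament binding protein gene, was at 0.631 to 2.41 CPM in syn-gRNA and at 2.30 to 5.63 in the others, overlapping with agoshRNA alone, with log2 differences of 0.93 ± 0.27, 0.97 ± 0.27 and 0.88 ± 0.27. AFAP1 differed by 0.74 to 0.80 and passed against each. DHRS4-AS1 was at 10.3 to 14.3 CPM in syn-gRNA and 10.5 to 29.8 in the others, also overlapping with agoshRNA alone, with log2 differences of 0.49, 0.62 and 0.69. DHRS4, a reductase gene, has near-identical copies beside it, so the counts of this locus are uncertain. Neither antisense RNA passed in the summed fit, and the DHRS4-AS1 difference from agoshRNA did not pass in edgeR or in 11 of the 24 fits that leave out 1 library. Without the syn-gRNA KD library of letter B, the AFAP1-AS1 difference from pre-gRNA was 0.68 and did not pass. A1BG-AS1 and BAIAP2-AS1 passed in 1 comparison each, against gRNA (1.04 ± 0.37) and pre-gRNA (1.03 ± 0.39), and in neither edgeR nor a summed fit. With GC offsets the BAIAP2-AS1 difference was 0.70 and did not pass.

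Partners of the antisense RNAs that differed from syn-gRNA had fold changes of the same sign in 10 of 12 pairs against agoshRNA, in 10 of 11 against gRNA and in 15 of 16 against pre-gRNA. The partner passed in the same direction in 4, 4 and 7 of these and in the opposite direction in 0. Of all 91 partners tested, 7, 10 and 17 passed, where 13.2, 10.9 and 17.9% of all genes did. Of the 16 other named antisense or overlapping RNAs, with symbols ending in -AS, -AS2, -AS3, -IT1 or -OT1, 5, 6 and 9 passed in the same 3 comparisons, beside those same shares of all genes.

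Antisense RNAs of patterning genes were few. Of 20 antisense RNAs of patterning and lineage genes that were listed, 6 were members: HOXB-AS1, HOXC-AS1, HAND2-AS1, ZEB1-AS1, ZEB2-AS1 and DLX6-AS1. None passed for KD against NTC in any setup. Against syn-gRNA, 2 of the 6 were lower in agoshRNA (HOXC-AS1 and ZEB2-AS1), and 1 each in gRNA and pre-gRNA (ZEB2-AS1), and none was higher. Of all genes, 5.66, 4.97 and 7.34% were lower in those 3 setups. Their median log2 difference from syn-gRNA was -0.36, -0.27 and -0.32, against 0.01, 0.03 and 0.05 over all genes tested. HOXB-AS1, in the HOXB cluster, was even over the libraries at 10.5 to 18.6 CPM, and HAND2-AS1 was low at 0.431 to 1.97 CPM. ZEB1-AS1, opposite the relative of ZEB2, ranged from 5.32 to 22.6 CPM, and DLX6-AS1, opposite a homeobox gene, from 1.31 to 13.2 CPM.

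Of 16 antisense RNAs with many published reports that were listed, CDKN2B-AS1 (ANRIL), which lies across the cyclin-dependent kinase inhibitor genes CDKN2A and CDKN2B, was a member. It ranged from 7.64 to 9.82 CPM in syn-gRNA and from 4.11 to 8.86 in the others. It was lower than in syn-gRNA by a log2 difference of -0.55 ± 0.20 in agoshRNA (adjusted p of 0.046 in DESeq2) and of -0.64 ± 0.20 in pre-gRNA (adjusted p of 0.012 in DESeq2). The first did not pass in edgeR. With GC offsets these were -0.19 and -0.22, and they passed neither there nor in the summed fit. The 2 hosts of small nucleolar RNAs, EPB41L4A-AS1 and LRRC75A-AS1, passed in no comparison.

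The 17 antisense RNAs with no exon base shared with another strand have no annotated exon stretch in which reads could come from the other strand. None passed between the plasmid setups. Their median log2 difference was -0.32 for agoshRNA against gRNA, negative in 17 of 17, and -0.46 for agoshRNA against pre-gRNA, negative in 15 of 17. Over all genes tested it was -0.01 and -0.02. Over all 98 antisense RNAs it was -0.09 and -0.10, negative in 68 and 59. Of the 16 other named antisense or overlapping RNAs, 14 and 13 were negative. The lean is thus not particular to these 17, and it was not tested. Against syn-gRNA 3, 3 and 4 of the 17 passed in the 24-library model, for agoshRNA, gRNA and pre-gRNA, near the 13.2, 10.9 and 17.9% of all genes.

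Levels of the antisense RNAs varied between column letters within each arm. On the log2(CPM + 0.5) scale, the median over the 98 of the range between letters was 0.90 in agoshRNA, 0.65 in gRNA, 0.72 in pre-gRNA and 0.37 in syn-gRNA. The median size of the difference between KD and NTC libraries of one letter was 0.28, 0.25, 0.20 and 0.22. A range over 3 letters and a difference of 2 libraries are not the same measure, and they were not tested against each other. The range was narrowest in the syn-gRNA setup.

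RNF219-AS1 (now OBI1-AS1) varied by most, with a median range between letters of 2.19 over the 4 setups. In agoshRNA it was at 8.16 CPM in the KD library of letter A and 66.2 in that of letter B, and the NTC libraries of these letters were at 10.6 and 50.2. In pre-gRNA letter B was the lowest, at 8.56 and 10.1 CPM for KD and NTC, and letter C the highest, at 51.5 and 46.6. CERS6-AS1, opposite a ceramide synthase gene, was low and high in the same libraries, at 2.99 and 36.7 CPM in the agoshRNA KD libraries of letters A and B. HOXA11-AS1 was high in letter A, at 50.8 CPM in the agoshRNA KD library against 17.5 and 13.4 in letters B and C, and the NTC libraries gave 40.9, 21.6 and 12.1. A1BG-AS1 and BAIAP2-AS1 were highest in letter A in both arms of the 3 plasmid setups.

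GC content moved with the letters. Over the 96 antisense RNAs with a known value, the correlation of GC content with the deviation of a letter from its setup's mean was 0.50 for letter A and -0.59 for letter B of agoshRNA, 0.61 for A and -0.61 for C of gRNA, and 0.59 for B and -0.68 for C of pre-gRNA. In syn-gRNA it lay between -0.23 and 0.28. With the difference of a plasmid setup from syn-gRNA it was 0.27, 0.245 and 0.36. These are correlations across genes that share libraries and are given as a description. The part of GC content in the letter differences was not tested.

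Likeness between antisense RNAs was measured over the 8 group means as Pearson's r of log2(CPM + 0.5). ZEB2-AS1 was most like RBM12B-AS1 (0.96), ZNF295-AS1 (0.96) and RNF219-AS1 (0.94). GTSE1-AS1 was most like JHDM1D-AS1 (0.96), A1BG-AS1 (0.93) and BAIAP2-AS1 (0.93). FOXD2-AS1 was most like DHRS4-AS1 (0.96), BAIAP2-AS1 (0.95) and RUSC1-AS1 (0.95).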

How the data were processed

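Poly(A)-selected, non-stranded RNA from 24 libraries was sequenced. Per the submitters' processing notes, the authors used Trim Galore, STAR 2.7.3a, featureCounts and DESeq2 with hg19; counting settings and the handling of overlapping genes are not given in the sources used here. Each of the 4 deposited tables holds raw counts per gene, the same in all 4, and the authors' log2 fold changes and p-values for one setup. Another 24 normalised columns per table were not used. Groups follow the column names. Column letters were taken to pair KD and NTC libraries of a setup, since in 12 of 12 pairs the deviations from the group means correlated above 0.1.

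A gene was tested where 3 or more of the fitted libraries held 10 or more of its reads, and fits were made with DESeq2 1.42.0 (R 4.3.3), with Benjamini-Hochberg adjustment over all genes tested and a threshold of 0.05; edgeR 4.0.16 was an alternative. Scripts were tested on simulated data. Levels are CPM of raw counts, with 0.5 CPM added on the log2 scale. GENCODE 29 gave exons and GC content. The members and lists were chosen with earlier results of these data known. RNAs were named by a rule: the highest 8 by CPM and 4 by CPM per kilobase, the largest non-overlapping calls between setups (up to 3 in each direction per pair) and those against all 3 other setups, the highest and lowest non-overlapping KD difference per setup among RNAs with a mean of at least 20 counts there, the 2 with the smallest p for the average KD effect, the extremes of partner correlation among pairs with means of at least 50, and list members. The letter examples and the comparison of promoter windows were chosen after the values were seen. 1 RNA that the rule names is not reported here.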

Additional observations from a re-analysis of the deposited data

How the results depend on the processing

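The counts for KD against NTC, its average and its differences between setups were 0 in all 266 settings run, with at most 4 antisense RNAs at an unadjusted p under 0.05, including the paired fits with the column letter as a replicate block (0 called in each setup). Counts between setups depended on the settings. Between agoshRNA and syn-gRNA, 13 became 4 with edgeR, 1 with KD libraries alone, 0 with NTC libraries alone (DESeq2, 9 at an unadjusted p under 0.05) and 1 with same-letter libraries summed. Between gRNA and syn-gRNA, 12 became 1 with KD or with NTC libraries alone, 22 in a fit of the 12 libraries of the pair and 2 with sums. Between pre-gRNA and syn-gRNA, 17 became 3, 1, 28 and 3 in those 4 settings. GC offsets gave 1 call between agoshRNA and gRNA, in place of 0. Leaving out 1 library at a time gave 4 to 18, 7 to 15 and 11 to 23 calls against syn-gRNA, in the same order, and 0 to 1 between agoshRNA and pre-gRNA. The lowest values came without agoshRNA NTC A, syn-gRNA KD B, KD C or NTC C (4), without gRNA KD A, gRNA NTC A, syn-gRNA KD B, KD C or NTC C (7), and without pre-gRNA NTC A or syn-gRNA NTC B (11). The cause was not tested. The settings shared by the named RNAs left 761 values on the same side of the threshold and 145 weaker, with 0 reversed. Low counts limit the precision of RNAs such as ZEB2-AS1 and GTSE1-AS1.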
